A study of Mus musculus with 6 samples.

Results

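The genes described here are 46 members of the transforming growth factor beta (TGF-beta) and bone morphogenetic protein (BMP) pathways, chosen by name as ligands, receptors, SMADs, regulators and target genes. All 46 were among the 20040 entries of the expression table. Messenger RNA was sequenced from cultured cortical neurons of C57BL/6 mice taken at embryonic day 18, in 3 wild-type libraries (WT) and 3 labelled as KDM6B knockout (KO). The Kdm6b product takes methyl groups off histone H3 lysine 27, a mark of silenced genes, and the comparison addresses which transcripts depend on the genotype. Neither the deleted part of Kdm6b, nor the line or Cre behind the knockout, nor the days in culture, the number of embryos per library or the origin of replicates is given in the sources used here. The p-values thus reflect no more than how far these libraries scatter, and part of that scatter may be technical.

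Levels are given in TPM, a unit for shares of transcripts scaled by gene length that sums to 1000000 in each library, so levels of different genes can be set side by side. The whole counts recovered behind these values added up to between 20023406 and 23812283 per library, so that for a 1 kb gene a single count equalled 0.126 to 0.151 TPM. The mean level of Kdm6b itself (± SD, n = 3 libraries a group) was 30.6 ± 0.279 TPM in WT against 11.4 ± 0.536 TPM in KO, 37.3% of WT. The groups also differed in Y-linked RNA. The genes Eif2s3y, Ddx3y, Kdm5d and Uty together held 91.0 to 93.9 TPM in WT libraries and 0.149 to 0.754 TPM in KO libraries. Xist, which is transcribed from the inactive X chromosome of female cells, had 70.8 to 77.7 TPM in WT and 224.3 to 240.7 TPM in KO, so the WT libraries held RNA of both kinds. The mix of sexes among the embryos, which is not given in the labels, and the genotype cannot be told apart in any comparison of these groups. The 6 pan-neuronal markers, Rbfox3, Tubb3, Map2, Snap25, Syt1 and Stmn2, summed to 6059 to 6089 TPM in WT and 6310 to 6408 TPM in KO. They did not move together: Tubb3 rose to 111.9% of WT and Rbfox3 fell to 87.0%. Map2 (105%), Stmn2 (105%), Syt1 (100%) and Snap25 (96.0%) did not pass the test described below. The cultures also held glial RNA, with 8 astrocyte markers summing to 2170 to 2216 TPM in WT and 2388 to 2537 TPM in KO. Aldoc (139% of WT) and Slc1a3 (111.9%) carried the higher KO sum, while in 5 of the 8 every KO library lay below every WT library. In such bulk libraries fewer cells of a type and less RNA per cell cannot be told apart.

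Ligands of this family are secreted dimers that bring together pairs of type I and type II serine/threonine kinase receptors. TGF-betas and activins signal mainly through SMAD2 and SMAD3, and BMPs through SMAD1, SMAD5 and SMAD9 (also called SMAD8), and both sets enter the nucleus with SMAD4. Signalling is held in check by secreted antagonists, by inhibitory SMADs and by nuclear corepressors, several of which are themselves induced by the pathway. In the developing brain the pathway takes part in patterning, in the choice between neuronal and glial fates, and in growth of axons, dendrites and synapses.

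Of the 46 members 45 reached the mean of 0.5 TPM that was needed for the test, and 8 of them passed at an adjusted p below 0.05, 7 lower and 1 higher in KO. The lower members were the ligand genes Bmp6, Tgfb3 and Inhba, the protease gene Bmp1, the secreted follistatin-like gene Fstl1, the inhibitory SMAD gene Smad7 and the target gene Id3. The higher member was the activin receptor gene Acvr2a. These 8 are 17.8% of the tested members, where 10.9% of all 14983 tested genes passed. The lower members are 15.6%, against 6.74% of all tested genes, and the higher member is 2.22%, against 4.15%. Tests were limma fits on log2 of TPM plus 0.5 over all tested genes, with Benjamini-Hochberg adjustment over all of them. The added 0.5 makes differences of low genes look smaller than they are. The median log2 fold change was -0.06 over the 45 tested members and -0.02 over all tested genes.

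Calls were counted by role, with no test of a difference between roles. Over all tested genes 6.74% passed as lower and 4.15% as higher. Of 18 tested extracellular members (ligands, latency and processing genes, antagonists) 5 fell and none rose. Of 12 receptors and co-receptors 1 rose and none fell, of 12 intracellular members (SMADs, ubiquitin ligases, corepressors) 1 fell, and of 3 ID target genes 1 fell. In 16 members, 35.6% of those tested, every KO library lay below every WT library, against 19.2% of all tested genes. In 4 members, 8.89%, every KO library lay above, against 12.5% of all tested genes. In either direction that was 31.7% of all tested genes.

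**Figure D1:**
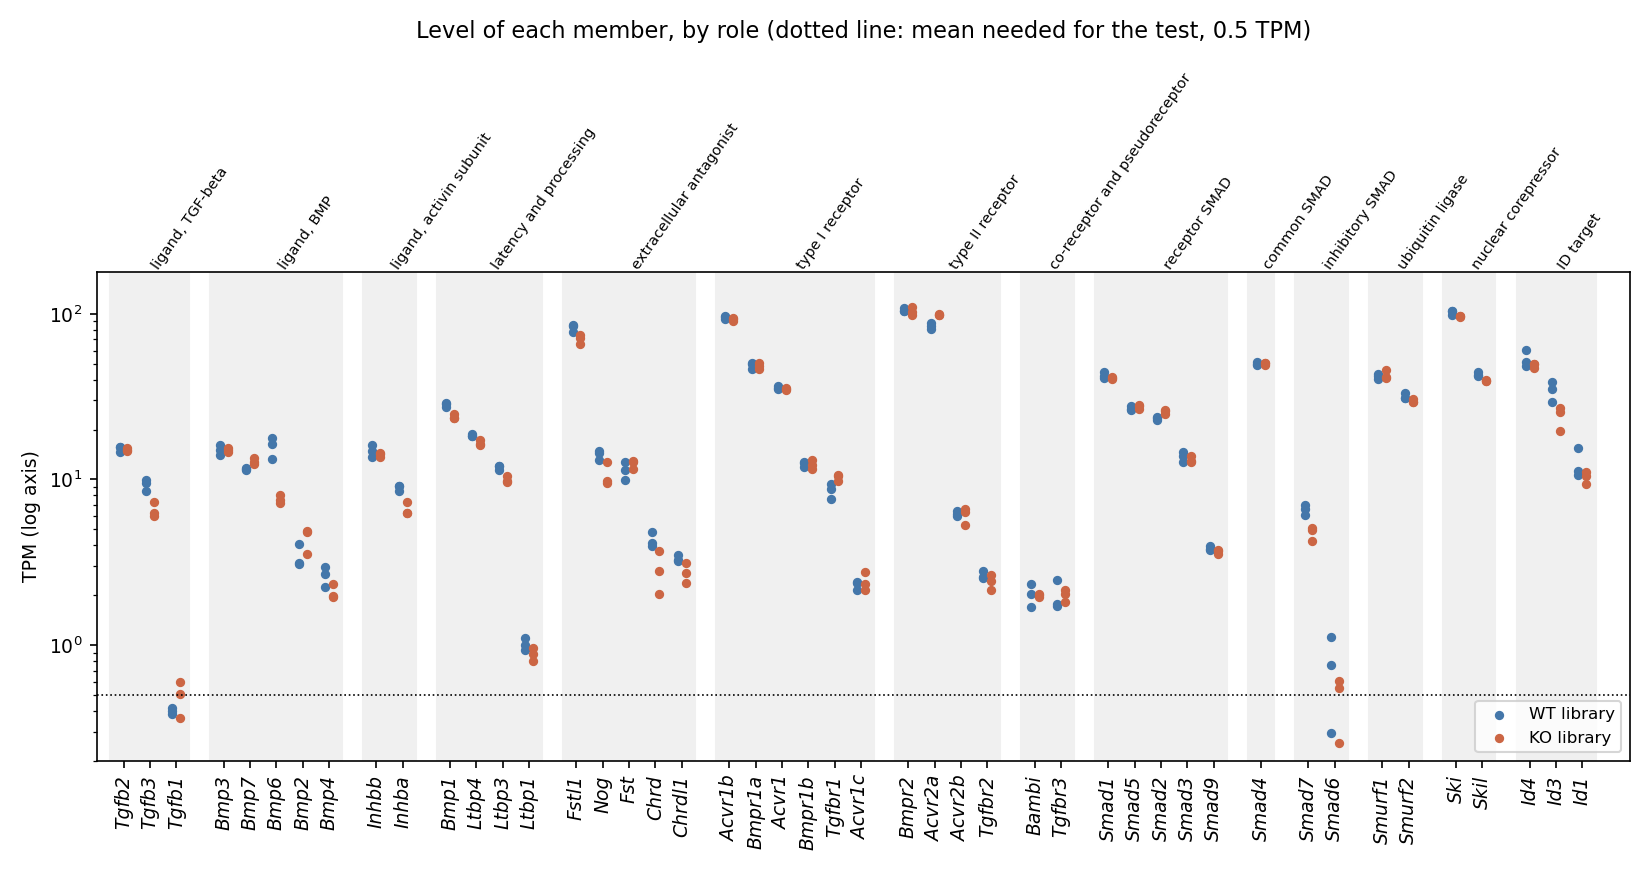
Level of each of the 46 members in TPM on a log axis, grouped by role, with 1 point per library (3 WT, 3 KO). Points of the 2 groups lie apart for Bmp6, at 47.8% of WT, and Tgfb1 lies near the dotted line at 0.5 TPM, the mean needed for the test.

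Promoters of 2 members are shown, those of Acvr2a, which rose, and of the ligand gene Inhba, which fell. Of the promoters found for members that passed, only these held no exon of the same gene. RefSeq start sites on GRCm38.p6 placed the 250 bases upstream of Acvr2a at chr2:48813859-48814108 and those of Inhba at chr13:16011601-16011850, both on the plus strand. Neither window held a GENCODE M21 exon of its own gene, and exons of other genes were not checked. Capitals mark CAGAC or its reverse complement GTCTG, a short SMAD-binding sequence.
Acvr2a: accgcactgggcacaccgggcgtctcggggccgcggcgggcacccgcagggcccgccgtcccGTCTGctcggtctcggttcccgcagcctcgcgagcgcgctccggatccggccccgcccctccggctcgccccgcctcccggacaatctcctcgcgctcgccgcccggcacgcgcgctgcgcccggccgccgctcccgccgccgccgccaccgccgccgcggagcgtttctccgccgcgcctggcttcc
Inhba: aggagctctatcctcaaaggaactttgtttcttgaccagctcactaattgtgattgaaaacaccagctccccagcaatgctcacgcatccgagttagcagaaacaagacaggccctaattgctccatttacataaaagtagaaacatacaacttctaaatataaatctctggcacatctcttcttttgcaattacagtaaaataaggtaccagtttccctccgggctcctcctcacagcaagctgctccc
The Acvr2a window held 49 CpG dinucleotides with 82.0% G and C, and the Inhba window 3 with 43.2%. The search covered both strands for CAGAC, for the palindrome GTCTAGAC, which holds CAGAC's core AGAC but not CAGAC itself, and for GGCGCC, a palindrome in BMP-responsive elements. Promoters of 31 members, 40 windows in all, matched by symbol, and 5 of the 8 members that passed were among them: Acvr2a, Bmp6, Fstl1, Id3 and Inhba. CAGAC was found in 3 of these 5 windows (Acvr2a, Bmp6 and Id3), in 37.5% of the 40 member windows and in 42.2% of all 32851 promoter windows of the same length. The Bmp6, Fstl1 and Id3 windows also held exon sequence of their own gene. Some member windows overlapped each other, as for Ltbp4 and Smad5. GGCGCC was in none of the 5, in 27.5% of member windows and in 9.59% of all windows, and GTCTAGAC was in no member window and in 0.167% of all. Member windows had a median of 22 CpG dinucleotides, the 5 windows a median of 18, and all windows a median of 6. These matches describe the letters in the windows and are not binding sites.

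Among the BMP ligand genes Bmp6 fell and the other 4 did not pass. Bmp6, on chromosome 13 from 38345107 to 38500302 (GRCm38, as for all gene positions here), had 17.8, 13.3 and 16.5 TPM in WT replicates 1, 2 and 3 and 8.04, 7.503 and 7.22 TPM in KO replicates 1, 2 and 3. The lowest WT library was thus well above the highest KO library, and the KO mean was 47.8% of the WT mean (log2 fold change -1.01 ± 0.11 SE; limma adjusted p = 0.0014). These values rest on 115 to 306 counts per library. The call was kept in all 16 alternative fits, with adjusted p up to 0.013. An exon of Bmp6 overlaps Txndc5 on the opposite strand, and Txndc5 was at 95.4% of WT and did not pass (limma adjusted p = 0.31).

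The other BMP ligand genes took a larger mean share of the group in KO, apart from Bmp4. Bmp3, whose product can oppose other BMPs, had 14.0 to 16.2 TPM in WT and 14.7 to 15.5 TPM in KO, with a log2 fold change of 0.00 ± 0.06. Bmp7 had 11.4 to 11.7 TPM in WT and 12.4 to 13.4 TPM in KO, so that the groups did not overlap, but it did not pass (log2 fold change 0.15 ± 0.06; limma adjusted p = 0.14). Bmp2 was at 128% and Bmp4 at 79.8% of the WT mean, both with overlapping groups and with 137 counts or fewer in any library. Over the 5 genes the summed level went from 48.6 ± 2.47 TPM in WT to 42.1 ± 0.799 TPM in KO (SD, n = 3 each). Bmp6 held 32.6 ± 3.38% of that sum in WT and 18.0 ± 0.651% in KO, whereas Bmp7 held 23.8 ± 1.16% and 30.6 ± 0.893%. In WT, Bmp6 and Bmp3 had about the same level, within their spread, and Bmp7 lay below both, while in KO the order was Bmp3, Bmp7, Bmp6.

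Of the TGF-beta ligand genes Tgfb3 fell, Tgfb2 did not pass and Tgfb1 was too low to test. Tgfb3 (chromosome 12, 86056745 to 86079041) had 9.98, 8.47 and 9.57 TPM in the 3 WT libraries and 7.33, 6.28 and 5.99 TPM in the 3 KO libraries, 69.9% of WT with no overlap (log2 fold change -0.49 ± 0.10; limma adjusted p = 0.020). Its exons overlap Gm37804 and Gm48008 on the opposite strand. Its call was lost when any of WT replicates 1 and 3 and KO replicates 2 and 3 was left out (adjusted p up to 0.076). Tgfb2, the most abundant of the 3, had 14.6 to 15.7 TPM in WT and 14.8 to 15.4 TPM in KO, and its share of the summed ligand level was 61.2 ± 1.08% in WT and 68.3 ± 2.04% in KO. Tgfb1, a ligand made in brain mainly by microglia, rested on 6 to 9 counts per library. Its values were 0.402, 0.415 and 0.382 TPM in WT, against 0.599, 0.362 and 0.506 TPM in KO. The microglia markers Aif1, Csf1r, Cx3cr1, P2ry12, Tmem119, C1qa and Trem2 were low as well, at or below 1.27 TPM in every library.

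Activins are dimers of beta subunits, and of the genes for these subunits Inhba fell and Inhbb did not pass. Inhba (chromosome 13, 16011851 to 16031621), which is known as an activity-regulated gene in neurons, had 9.08, 8.52 and 9.15 TPM in WT, against 7.30, 6.29 and 6.23 TPM in KO. The groups did not overlap, and KO was at 74.1% of WT (log2 fold change -0.41 ± 0.08; limma adjusted p = 0.020) on 63 to 105 counts per library. Leaving out any of the same 4 libraries as for Tgfb3 ended the call (adjusted p up to 0.074). Inhbb had 14.9 ± 1.17 TPM in WT and 14.1 ± 0.347 TPM in KO, with overlapping groups.

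Genes for latency and processing were all lower in the KO mean, and 1 of 4 passed. In 3 of them every KO library lay below every WT library, as in 19.2% of all tested genes. Bmp1 (chromosome 14, 70474558 to 70520234), which in spite of its name encodes a metalloprotease that cleaves procollagens and the BMP antagonist chordin, had 28.8, 28.6 and 27.2 TPM in WT, against 24.9, 23.6 and 23.5 TPM in KO. That is 85.1% of WT without overlap (log2 fold change -0.23 ± 0.04; limma adjusted p = 0.017). Its call was lost when either of WT replicates 1 and 2 or of KO replicates 2 and 3 was left out, with an adjusted p up to 0.068. The latent TGF-beta binding proteins anchor latent ligand in the extracellular matrix. Of their genes Ltbp3 was at 84.6% and Ltbp4 at 89.7% of WT, both without overlap and both short of the threshold (limma adjusted p = 0.056 and 0.089). Both passed with limma voom on the recovered counts, and Ltbp3 also without the variance trend. Exons of Chrd overlap Thpo on the opposite strand, and strand use in counting is not given in the sources used here. Ltbp1 stayed near 1 TPM, with 0.931 to 1.10 TPM in WT and 0.799 to 0.960 TPM in KO.

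In this set 4 of 5 antagonist genes had all KO libraries below all WT libraries, and 1 of them passed. Over all tested genes 19.2% lay below in this way and 6.74% passed as lower. Fstl1 (chromosome 16, 37776873 to 37836514), which encodes a secreted glycoprotein that binds BMPs and related ligands, held 71.3% of the summed level of this group in WT. It had 85.4, 77.4 and 84.0 TPM in WT, against 74.1, 71.1 and 65.9 TPM in KO, 85.6% of WT (log2 fold change -0.22 ± 0.05; limma adjusted p = 0.035). Its call was lost in 8 of 16 alternative fits, median centring and 4 of the 6 fits without 1 library among them (adjusted p up to 0.11). Noggin and chordin bind BMPs and keep them from their receptors. Nog had 14.8, 13.2 and 14.4 TPM in WT, against 9.58, 9.74 and 12.8 TPM in KO, and Chrd had 3.95 to 4.81 TPM in WT and 2.05 to 3.71 TPM in KO. Neither passed (limma adjusted p = 0.063 and 0.11), although both did with limma voom on the recovered counts. In both genes 1 KO library stood near the WT range, KO replicate 3 for Nog and KO replicate 2 for Chrd, and each passed when that library was left out. The X-linked Chrdl1 was at 82.5% of WT (limma adjusted p = 0.27). Fst, encoding the activin-binding follistatin, had overlapping groups at 9.87 to 12.7 TPM in WT and 11.5 to 12.9 TPM in KO.

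**Figure D2:**
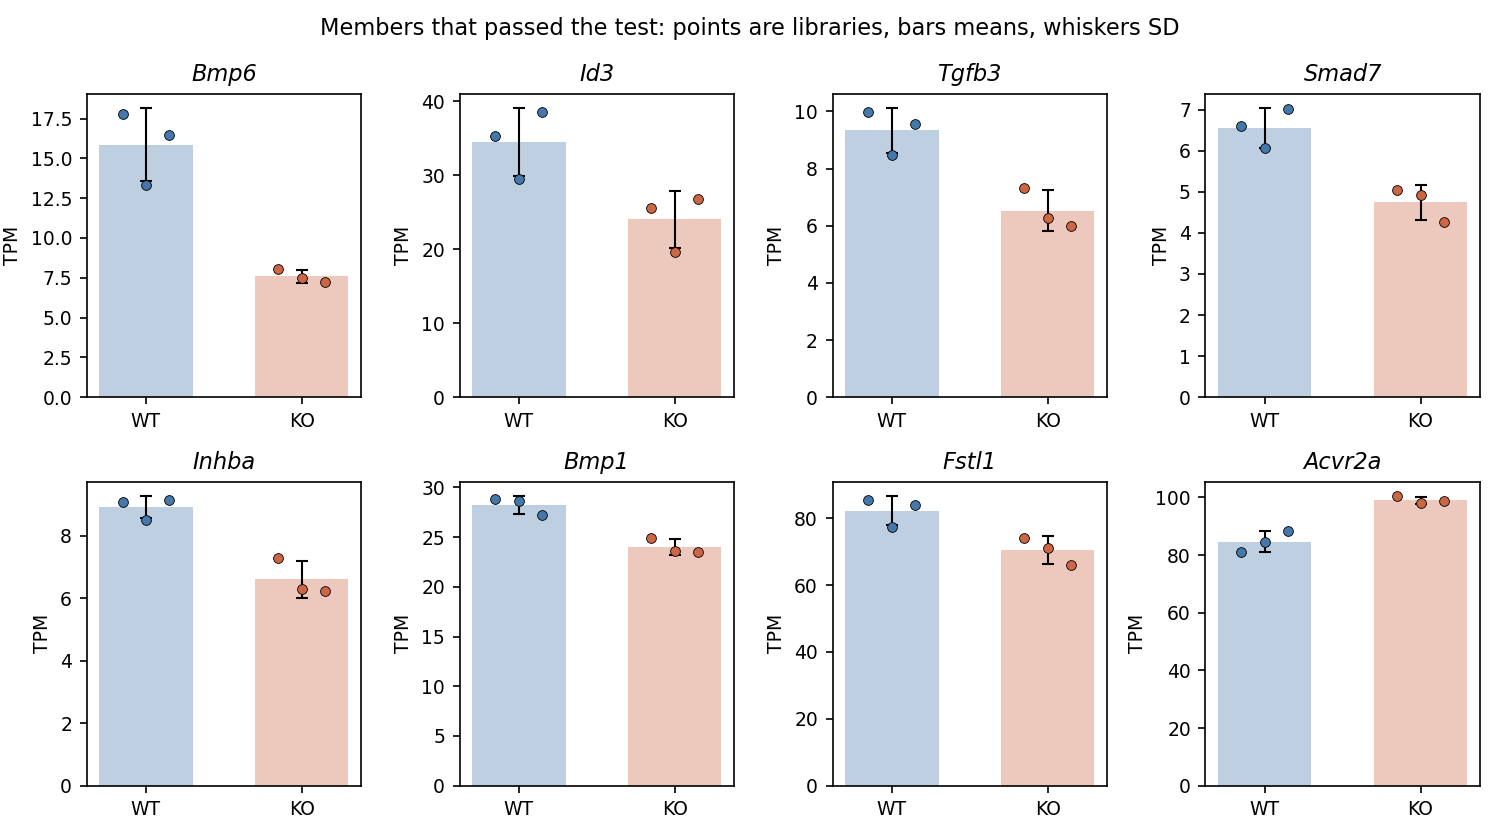
TPM of the 8 members that passed the test, with 1 point per library, bars for the mean of 3 libraries and whiskers for the SD. In each panel the WT and KO points do not overlap, from Bmp6 at 47.8% of WT to Acvr2a at 117% of WT.

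Of the 12 receptor and co-receptor genes Acvr2a passed and the other 11 did not. Acvr2a (chromosome 2, 48814109 to 48903269), the gene for a type II receptor of activins and several BMPs, had 81.2, 84.7 and 88.2 TPM in WT, against 100.3, 98.0 and 98.7 TPM in KO. Each KO library was above each WT library, and the KO mean was 117% of WT (log2 fold change 0.22 ± 0.03; limma adjusted p = 0.0063) on 3290 to 4402 counts per library. The call was kept in all 16 alternative fits, with adjusted p up to 0.037. An exon of Acvr2a overlaps Orc4 on the opposite strand, and Orc4 was at 90.9% of WT and did not pass (limma adjusted p = 0.32). Acvr2a held 42.5 ± 0.643% of the summed level of the type II receptor genes in WT and 46.9 ± 0.799% in KO.

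The other type II receptor genes had overlapping groups. Bmpr2, the BMP type II receptor gene and the most abundant of the 46 members, had 104.2 to 107.8 TPM in WT and 98.5 to 110.2 TPM in KO (log2 fold change -0.02 ± 0.04). Acvr2b and the TGF-beta type II receptor gene Tgfbr2 were far lower, at 6.22 ± 0.203 and 2.64 ± 0.147 TPM in WT, against 6.09 ± 0.674 and 2.41 ± 0.244 TPM in KO. None of the 6 type I receptor genes passed. Acvr1b, the main activin type I receptor gene, had 94.8 ± 2.06 TPM in WT and 92.5 ± 2.06 TPM in KO, Bmpr1a 48.8 ± 2.13 and 48.4 ± 1.93 TPM, and Acvr1 35.3 to 36.5 TPM in WT and 34.5 to 35.5 TPM in KO. Tgfbr1, which encodes the TGF-beta type I receptor, had 7.65, 8.71 and 9.34 TPM in WT, against 10.4, 10.6 and 9.80 TPM in KO. Its groups did not overlap and its KO mean was 120% of WT, but it missed the threshold (log2 fold change 0.25 ± 0.08; limma adjusted p = 0.10), passing only with limma voom among the alternatives. Bmpr1b and Acvr1c were at 98.7% and 105% of WT. Of the accessory receptors, the TGF-beta co-receptor gene Tgfbr3 and the pseudoreceptor gene Bambi were both near 2 TPM in both groups, with log2 fold changes of 0.02 ± 0.16 and -0.01 ± 0.15.

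**Figure D3:**
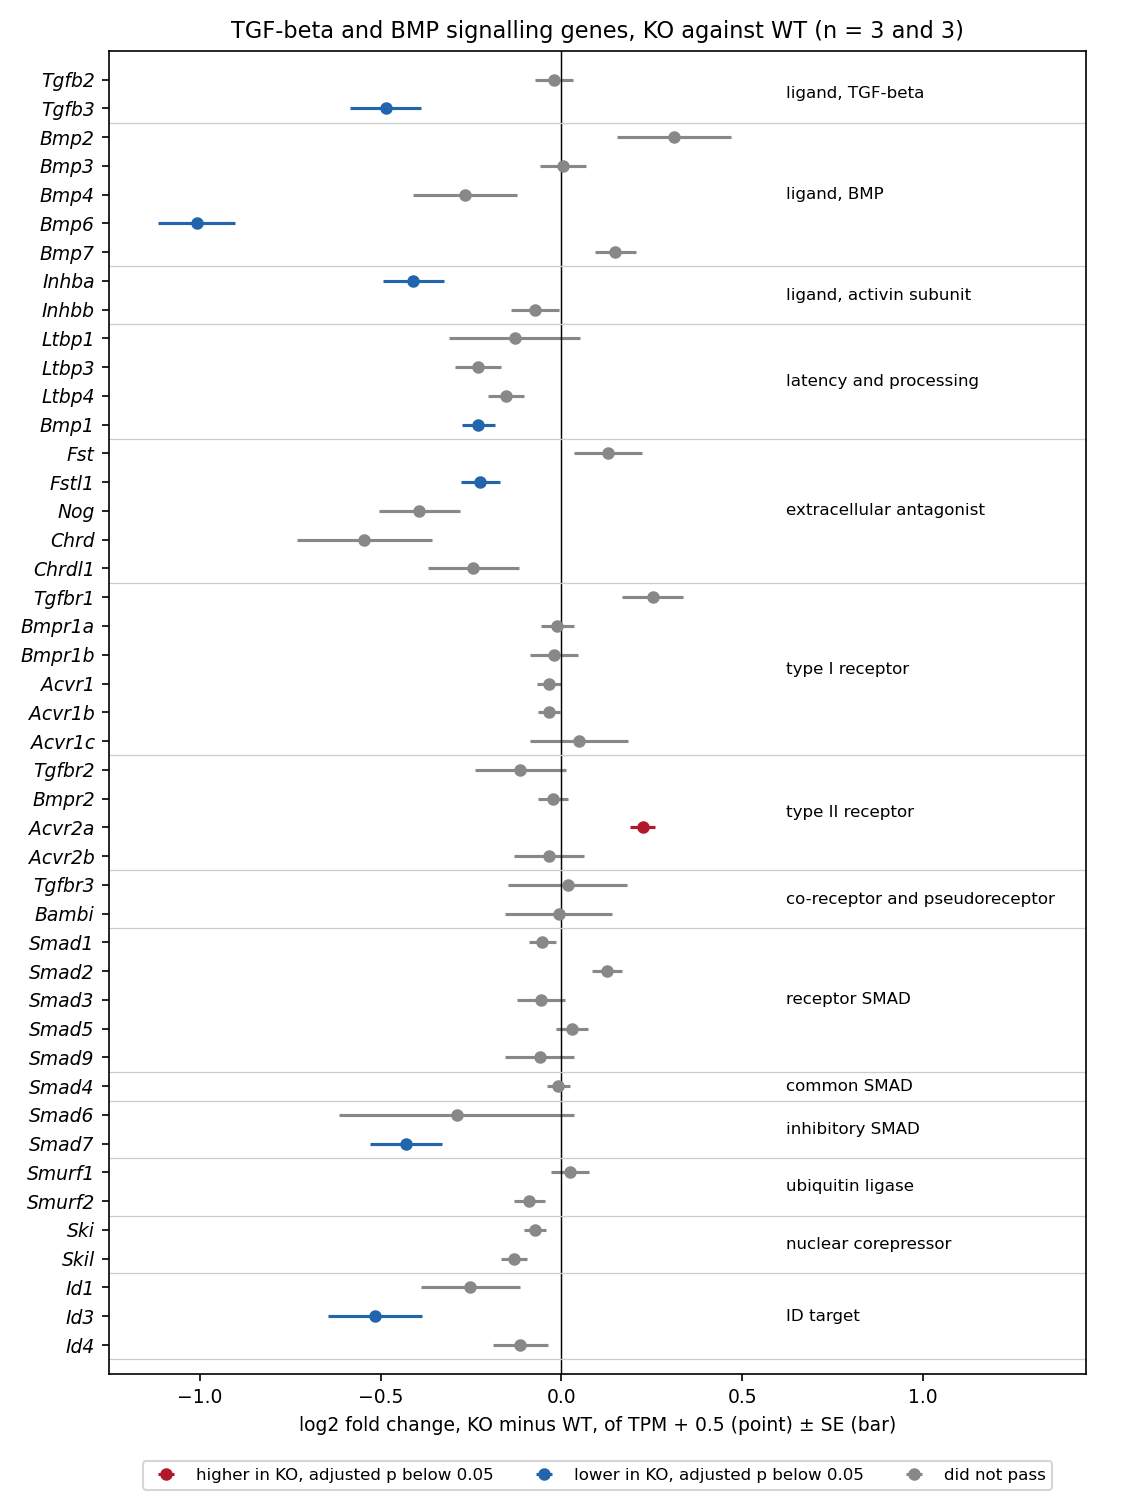
Difference between KO and WT for the 45 tested members, as log2 fold change of TPM plus 0.5 (point) with its SE (bar), in order of role, coloured by whether limma's adjusted p was below 0.05. The 7 lower members run from -1.01 (Bmp6) to -0.22 (Fstl1), Acvr2a is at 0.22, and Smad4 is at -0.01.

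SMAD genes that transmit the signal did not pass. For the common partner Smad4 the levels were 51.4, 49.3 and 49.6 TPM in WT, against 50.2, 48.9 and 50.2 TPM in KO (log2 fold change -0.01 ± 0.03). Smad1, the most abundant receptor-activated SMAD gene, had 42.5 ± 1.66 TPM in WT and 40.9 ± 0.382 TPM in KO, and Smad5, Smad3 and Smad9 were at 102%, 95.9% and 95.4% of WT. Smad2 had 23.0 to 23.9 TPM in WT and 24.7 to 26.1 TPM in KO, without overlap, but missed the threshold (log2 fold change 0.13 ± 0.04; limma adjusted p = 0.10). Among the alternatives Smad2 passed only with limma voom. Over the 5 receptor-activated SMAD genes the summed level was 110.5 ± 1.90 TPM in WT and 110.9 ± 1.29 TPM in KO.

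Smad7, whose product blocks type I receptors and which is itself induced by TGF-beta and BMP signals, fell. It lies on chromosome 18 from 75367529 to 75395935 and had 6.60, 6.06 and 7.02 TPM in WT, against 5.06, 4.93 and 4.26 TPM in KO. The highest KO library stayed below the lowest WT library, and KO was at 72.3% of WT (log2 fold change -0.43 ± 0.10; limma adjusted p = 0.031) on 125 to 234 counts per library. The call was kept in 8 of 16 alternative fits and was lost without a filter, with quantile normalization, with the replicate number as a block and in every fit without 1 library except that without WT replicate 2 (adjusted p up to 0.098). Smad6, the other inhibitory SMAD gene, rested on 5 to 25 counts per library. Its values were 0.755, 0.292 and 1.12 TPM in WT, against 0.610, 0.553 and 0.255 TPM in KO, too scattered to order.

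The ubiquitin ligase genes Smurf1 and Smurf2, whose products mark SMADs and receptors for degradation, were at 102% and 93.9% of WT and did not pass. The corepressor genes Ski and Skil, whose products hold SMAD complexes silent at target genes, had all KO libraries below all WT libraries. The same held for 19.2% of all tested genes. Ski had 97.9 to 103.8 TPM in WT and 95.6 to 97.2 TPM in KO. Skil, also a TGF-beta target, had 42.1 to 44.6 TPM in WT and 39.1 to 39.7 TPM in KO. Neither passed (limma adjusted p = 0.17 and 0.056). Skil did with a filter at a mean of 2 TPM and with limma voom.

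The ID proteins are inhibitors of basic helix-loop-helix factors, and their genes are standard readouts of BMP signalling. Id3 fell, and Id1 and Id4 did not pass. Id3 (chromosome 4, 136143497 to 136145755) had 35.3, 29.5 and 38.6 TPM in WT, against 25.6, 19.6 and 26.8 TPM in KO, 69.7% of WT with a narrow gap between the groups (log2 fold change -0.52 ± 0.13; limma adjusted p = 0.045). Of the 8 calls it was kept least often, in 6 of 16 alternative fits, and median centring, quantile normalization and 5 of the 6 fits without 1 library were among those that did not (adjusted p up to 0.13). Id1 had 10.7, 11.3 and 15.6 TPM in WT, against 11.05, 9.34 and 10.5 TPM in KO, so that the groups overlapped. Id4, the most abundant of the 3 at 48.2 to 60.3 TPM in WT and 47.2 to 49.9 TPM in KO, overlapped as well. WT replicate 3 had the highest value of all 6 libraries for Id1, Id3, Id4 and Smad6.

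RNA of other cell types differed between the same libraries. The 6 pericyte and smooth muscle markers summed to 76.1 to 108.4 TPM in WT and 39.3 to 64.1 TPM in KO. Within that list Tagln fell to 45.4% of WT (limma adjusted p = 0.013) and Acta2 was at 58.8%, whereas Pdgfrb was at 113% and Rgs5 at 138%, neither passing. Abcc9 stayed at or below 0.212 TPM and Kcnj8 was listed at 0 in 4 of 6 libraries. Of 8 radial glia and progenitor markers the intermediate filament genes Vim and Nes fell, to 72.2% and 71.2% of WT, and Fabp7 rose 1.09-fold. The 7 meningeal fibroblast markers summed to 36.6 to 37.5 TPM in WT and 47.1 to 60.97 TPM in KO, and the 3 that rose were Lum, Col1a1 and Dcn. All 6 inhibitory neuron markers fell, from a sum of 1196 to 1242 TPM in WT to 864.0 to 933.8 TPM in KO, and 4 of 6 excitatory neuron markers fell. Of 8 astrocyte markers Aldoc and Slc1a3 rose and Aldh1l1 fell, and the median log2 fold change of the list was -0.15. The oligodendrocyte lineage marker Cspg4 fell to 87.3% of WT, and of 6 endothelial markers Kdr fell while Cldn5, Flt1 and Tek stayed at or below 0.369 TPM. Pecam1 was at 93.5% of WT, and Cdh5 went from 0.328 ± 0.267 to 0.877 ± 0.498 TPM with overlapping groups, passing only with limma voom. The part of these shifts in the calls of Bmp6, Tgfb3, Inhba, Bmp1, Fstl1, Smad7, Id3 and Acvr2a was not tested.

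Beyond the 46 members, 82 other genes of the pathway were followed, of which 63 were tested. Among these 8 rose, 6 fell and 49 did not pass, and their median log2 fold change was 0.00. Over all tested genes 10.9% passed, 4.15% higher and 6.74% lower. Here 3 of 8 tested antagonist genes rose and none fell. Sostdc1, encoding a secreted BMP and Wnt antagonist, had 3.36, 3.47 and 4.49 TPM in WT, against 7.72, 5.99 and 6.82 TPM in KO, 181% of WT (log2 fold change 0.78 ± 0.13; limma adjusted p = 0.0099). Bmper, encoding a BMP-binding regulator related to chordin, rose from 5.25 ± 0.108 to 7.73 ± 0.547 TPM, 147% of WT. Crim1, encoding a membrane-bound BMP-binding protein, rose from 46.0 ± 1.96 to 56.8 ± 1.49 TPM. In all 3 every KO library was above every WT library.

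Against 4.15% of all tested genes, 2 of 3 tested receptors and co-receptors rose. These were the BMP co-receptor genes of the repulsive guidance molecule family, Rgma from 92.5 ± 1.92 to 114.8 ± 3.11 TPM (limma adjusted p = 0.0011) and Rgmb from 85.1 ± 3.68 to 97.5 ± 1.46 TPM. Their receptor gene Neo1 was at 181.0, 179.6 and 169.9 TPM in WT, against 190.8, 190.5 and 190.5 TPM in KO and missed the threshold (limma adjusted p = 0.053). Neo1 was named after its values were seen.

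Of 11 tested genes for latency and processing 3 fell and none rose, where 6.74% of all tested genes passed as lower. Thbs1, encoding the matrix protein thrombospondin-1 that can activate latent TGF-beta, fell to 70.9% of WT, and Itgb8, an integrin subunit gene with the same role, to 89.3%. The third, Ltbp2, was named after its values were seen: it had 1.03 to 1.15 TPM in WT and 0.229 to 0.507 TPM in KO, on 10 to 54 counts per library, and just passed (limma adjusted p = 0.049). Itgb8 and Thbs1 each lost their calls in 5 of the 6 fits without 1 library, and Ltbp2 in all 6. None of 10 tested ligand genes passed with limma, and 2 of them, Gdf5 and Mstn, had an unadjusted p under 0.05. These were named after their values were seen. Gdf5 had 0.518 to 0.750 TPM in WT and 1.05 to 1.39 TPM in KO, without overlap and on 9 to 23 counts, and passed only without the variance trend (limma adjusted p = 0.048). Mstn, which encodes myostatin, passed with limma voom on the recovered counts and without WT replicate 2. It had 1.31, 2.86 and 1.44 TPM in WT, against 3.69, 2.88 and 2.76 TPM in KO, on 25 to 71 counts, and its groups overlapped. Gdf1 and Gdf11 had 76.5 to 81.6 TPM and 26.0 to 30.9 TPM over all 6 libraries.

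The other target genes, a list that also holds Id2, went both ways, 2 lower and 2 higher among 13 tested. The shares over all tested genes were 6.74% lower and 4.15% higher. Id2 was not among those that passed. Cyr61 and Ctgf (now Ccn1 and Ccn2), matrix protein genes that respond to TGF-beta and also to the YAP and SRF pathways, fell to 51.7% and 71.2% of WT (limma adjusted p = 0.0015 and 0.029). Cyr61 had 39.1, 31.1 and 40.0 TPM in WT, against 20.2, 19.5 and 17.3 TPM in KO. Cdkn1a and Cdkn2b, cell cycle inhibitor genes that TGF-beta can induce, rose to 126% and 131% of WT (limma adjusted p = 0.0077 and 0.031). Of 18 intracellular regulators Zeb2, encoding a SMAD-binding transcriptional repressor, fell from 58.2 ± 2.59 to 46.1 ± 0.0792 TPM (limma adjusted p = 0.0019). Its exons overlap the antisense gene Zeb2os. Nedd4l, a ubiquitin ligase gene named after its values were seen, rose 1.08-fold (limma adjusted p = 0.046) and lost its call in each of the 6 fits without 1 library.

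**Figure D4:**
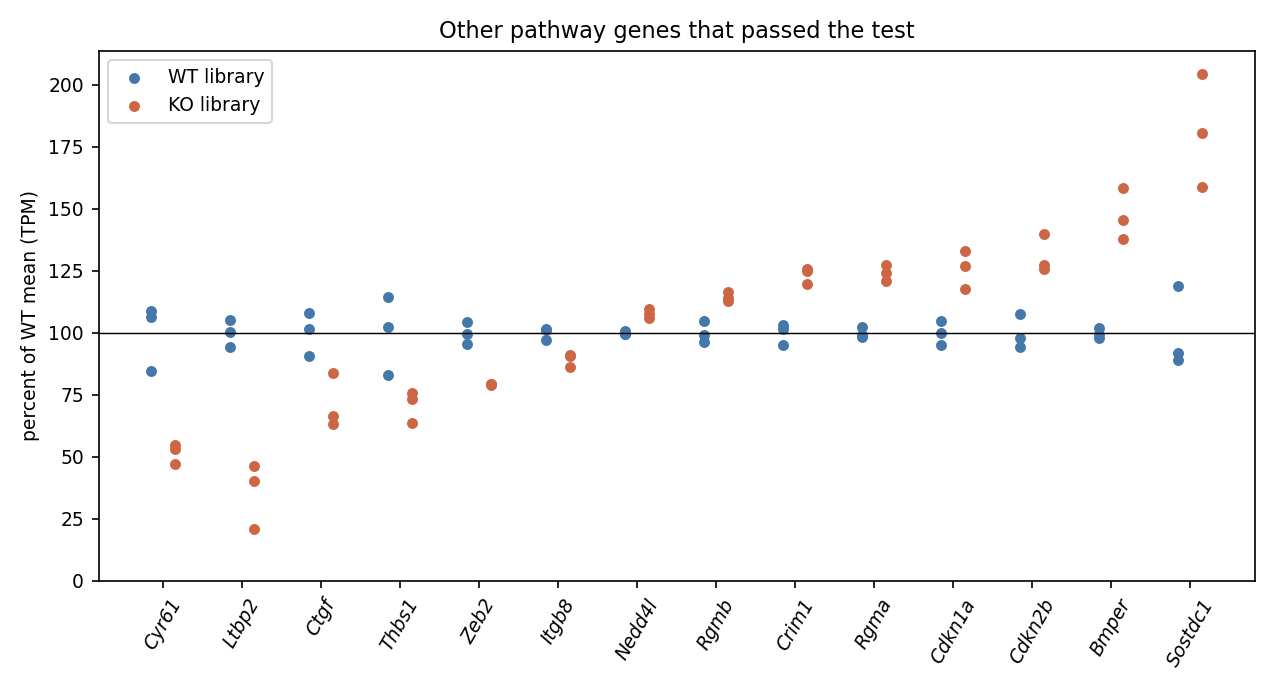
The 14 other pathway genes that passed the test, each library (1 point) as percent of the WT mean of that gene. KO points run from 21.0% of the WT mean in Ltbp2 to 204.6% in Sostdc1, and no gene has overlapping groups.

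The calls that held under every alternative fit run here were those of Bmp6 and Acvr2a among the members and of Rgma, Cyr61, Zeb2, Crim1, Bmper, Cdkn1a and Sostdc1 among the other pathway genes. The number of lower members changed with the library left out. It was 1 without WT replicate 1, 6 without WT replicate 2 and 2 without WT replicate 3. Among fits without a KO library it was 5 without replicate 1, 2 without replicate 2 and 2 without replicate 3. The last 2 counts include Chrd and Nog, which passed only there among these fits. Calls over all genes fell too in each such fit, which has fewer residual degrees of freedom. Scaling also shifted the balance of directions over all genes, from 622 higher and 1010 lower as deposited to 867 and 767 after median centring, under which 5 members were lower and 1 was higher.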

How the data were processed

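RNA-seq of 6 libraries (3 WT, 3 KO) was deposited as 1 table of 20040 entries. Its columns are named FPKM, but each sums to 1000000, so the deposited values were treated as TPM. The authors' tools, named in the submitters' processing notes, were TopHat and featureCounts, edgeR, Picard 1.127, FastQC 0.11.2 and bcl2fastq 2.17, and the build was mm10. Whole counts were recovered from the TPM values for 100.0% of the 19369 entries above 0 (tolerance 0.001 counts), and their totals give the depth.

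Log2 of TPM plus 0.5 was tested with limma 3.58.1 in R 4.3.3 (mean-variance trend, no covariates) for the 14983 genes whose mean reached 0.5 TPM, with Benjamini-Hochberg adjustment over all of them and a threshold of 0.05. The design had assumed length-scaled values, as found. Tests were checked on simulated data. The 16 alternatives changed pseudocount, filter, scaling, variance model or replicate block, used limma voom, or left out 1 library.

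Every member is accounted for, and those that passed are given by library. In other roles the member of smallest p and the one of highest mean are given. Of the other pathway genes at most 12 that passed are named by rule, smallest p first. Members, lists and markers were chosen with earlier results of these data known. Gene positions are from GENCODE M21 (GRCm38, the assembly of mm10), which held 94.6% of the table's names. Promoters are from RefSeq (GRCm38.p6). A few marker and neighbouring genes are not reported here.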

Additional observations from a re-analysis of the deposited data

How the results depend on the processing

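Among 511 fits of 32 single genes under 16 alternatives, 437 stayed on the same side of the threshold, 70 lost the call and 4 gained one. Direction was compared only where the gene passed in the main or the alternative fit, and 0 of those fits reversed. Genes that passed in neither fit may have changed sign. Over all genes 1632 were called, 622 higher and 1010 lower. Without the variance trend these were 1064, 406 and 658. With limma voom on recovered counts 2595 were called, 1176 of them higher, with 3 members higher and 12 lower and 14 other pathway genes higher. Without a filter 4 members were lower. Median centring gave 867 higher and 767 lower, and quantile normalization 788 and 813.

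Leaving out 1 library gave 892 to 1152 calls, 355 to 454 higher and 531 to 698 lower. Members called lower then numbered 1 to 6, and other pathway genes 5 to 8 higher and 2 to 4 lower. With 2 libraries left in an arm and fewer residual degrees of freedom, fewer calls are made by construction.

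The replicate numbers did not pair the samples: same-numbered libraries had correlations of deviations of 0.0077, -0.051 and 0.011. With the replicate block 945 genes were called, 360 higher and 585 lower, with 5 members lower and 3 other pathway genes lower. Not every library correlated best with its own number. Depth limits Tgfb1 and Smad6, at 6 to 9 and 5 to 25 counts per library.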
